A study of Mus musculus with 22 samples.

Results

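Prostaglandins are lipid mediators of inflammation, and the genes described here make them, break them down or encode the receptors that sense them. The list holds 10 mouse genes: *Ptgs1*, *Ptgs2*, *Ptges*, *Ptgis*, *Ptgds*, *Hpgd*, *Ptger2*, *Ptger3*, *Ptger4* and *Ptgfr*. Its members are the probe sets that the array annotation gives to one of these genes alone, which are 20 of 45037 probe sets tested and 9 of 18193 genes. *Ptgs1*, the constitutive cyclooxygenase, was not analysed here because no probe set was annotated to it alone. The RNA came from granulation tissue, the new tissue of a healing wound, that formed inside sponges of viscose cellulose placed beneath the back skin of mice. The groups were *Mmp13*-/- mice, which lack the collagenase MMP-13, and WT mice bred from heterozygotes of the same backcrossed line. All were males 5 to 8 weeks of age (C57BL/6 x 129 mixed background in the labels), and tissue was taken from the ends of the sponges at 7, 14 or 21 d. There were 22 arrays of 1 mouse each, with 3 per genotype at 7 d and 4 per genotype at 14 d and at 21 d.

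Prostaglandin synthesis starts when phospholipases release arachidonic acid from membranes. A cyclooxygenase converts it to prostaglandin H, and the form encoded by *Ptgs2* is the one that inflammatory signals induce. Separate terminal synthases then make each prostaglandin: that of *Ptges* makes prostaglandin E, that of *Ptgis* prostacyclin, which widens vessels and restrains platelets, and that of *Ptgds* prostaglandin D. *Hpgd* encodes the dehydrogenase that starts the inactivation of prostaglandins. *Ptger2*, *Ptger3* and *Ptger4* encode receptors for prostaglandin E. The first and last of them raise cyclic AMP, the one encoded by *Ptger3* mostly lowers it, and *Ptgfr* encodes the receptor for prostaglandin F.

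*Ptgs2* and *Ptger3* had the largest genotype differences at 21 d, in opposite directions, so their promoters are shown. Each runs from 250 bases before to 50 bases after the start of the gene in RefSeq annotation of GRCm38.p6. *Ptgs2* lies at chr1:150099781-150100080 and *Ptger3* at chr3:157566626-157566925, both on the plus strand. Capitals mark 5 short motifs searched for on both strands: CRE core (TGACG), E-box (CACGTG), C/EBP (TTGCNNAA), TATA box (TATAAA) and GC box (GGGCGG).
Ptgs2: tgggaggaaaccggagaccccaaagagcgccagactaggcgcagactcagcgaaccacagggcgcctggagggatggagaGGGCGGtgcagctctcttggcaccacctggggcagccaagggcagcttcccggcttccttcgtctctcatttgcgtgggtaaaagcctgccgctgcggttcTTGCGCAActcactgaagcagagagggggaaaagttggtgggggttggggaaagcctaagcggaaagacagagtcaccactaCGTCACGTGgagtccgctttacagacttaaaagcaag
Ptger3: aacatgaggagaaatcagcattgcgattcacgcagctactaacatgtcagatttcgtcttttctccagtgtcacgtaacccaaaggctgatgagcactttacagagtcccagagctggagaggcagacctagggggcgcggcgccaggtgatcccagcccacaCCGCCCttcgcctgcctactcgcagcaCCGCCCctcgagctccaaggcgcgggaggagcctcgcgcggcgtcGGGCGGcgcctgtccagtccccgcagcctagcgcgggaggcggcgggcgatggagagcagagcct
In the *Ptgs2* window the reverse of the CRE core and an E-box overlap just after the start of the gene, from base 14 to base 22. A palindromic C/EBP match lies from base -69 to base -62, and a GC box from -170 to -165. The *Ptger3* window holds 3 GC boxes, at -87, -60 and -15. Of 9 promoters of listed genes in the table, which has none for *Ptgis*, *Ptgs2* alone held a CRE core or an E-box, and 6 held a GC box. Over all 32851 promoters in the table, 20.8% held a CRE core, 7.15% an E-box, 10.8% the C/EBP pattern, 13.6% a TATA box and 35.7% a GC box. A match is a run of letters and no evidence of binding.

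Values are RMA log2 signals. Hybridization was done in 2 series. Series 1 was made up of the 7 d arrays with replicates 1, 2 and 3 of 14 d, and series 2 of replicate 4 of 14 d with the 21 d arrays. Both series have equal numbers of *Mmp13*-/- and WT arrays at each day, so genotype differences are free of the series. Differences between days were adjusted for it in the fit. Only 14 d has arrays of both series, so the adjustment rests on replicate 4 of each genotype against replicates 1, 2 and 3. This bears most on the changes at 21 d against 14 d. A difference was called where the limma p, adjusted over all probe sets after Benjamini and Hochberg, was under 0.05, and each gene is given by its brightest probe set. *Mmp13* itself was at most 8.63 on the *Mmp13*-/- arrays and at least 10.26 on the WT arrays, with a remaining signal whose place relative to the deletion is not given in the sources used here. In tissue made of many cell types, fewer cells of a type and less RNA per cell cannot be told apart.

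From 7 d to 14 d *Ptgis* fell in both genotypes and *Ptger3* rose in WT tissue. No member was called between genotypes at any day. At 14 d against 7 d, 1 of 9 members was called in *Mmp13*-/- tissue, where 0.945% of all genes were, and 2 of 9 in WT tissue, where 2.54% were. At 21 d against 14 d none was called in *Mmp13*-/- tissue (0.0495% of all genes) or in WT tissue (0.561%).

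**Figure D1:**
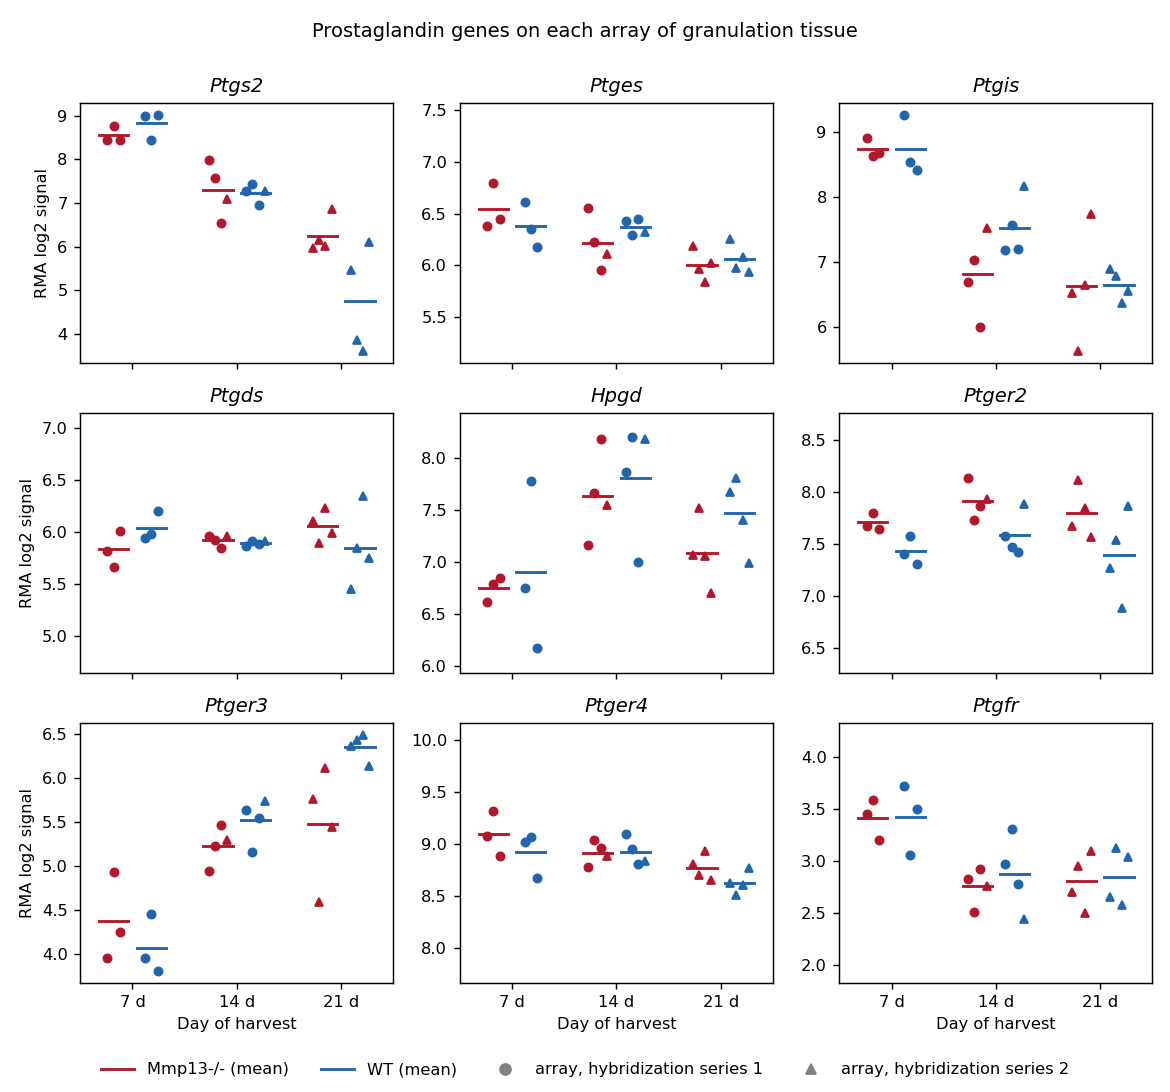
RMA log2 signal (y axis) of the 9 genes on each array by day of harvest (x axis), with *Mmp13*-/- arrays in red left of WT arrays in blue, circles for hybridization series 1, triangles for series 2 and lines for group means. *Ptgs2* and *Ptgis* are highest at 7 d, *Ptger3* is lowest at 7 d, and at 21 d the WT arrays of *Ptgs2* spread from 3.62 to 6.11.

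*Ptgs2* was highest at 7 d and lowest at 21 d in both genotypes, and at 21 d its mean was higher in *Mmp13*-/- tissue. Its log2 signal in *Mmp13*-/- tissue was 8.43, 8.76 and 8.45 at 7 d, 7.98, 7.58, 6.54 and 7.09 at 14 d, and 5.97, 6.15, 6.02 and 6.86 at 21 d. In WT tissue it was 9.0, 8.45 and 9.02 at 7 d, 7.27, 7.44, 6.95 and 7.28 at 14 d, and 5.47, 3.86, 3.62 and 6.11 at 21 d. Every array of 7 d lay above every array of 14 d in each genotype, and the genotypes overlapped at each day. The share of all genes without overlap between days was not counted, so non-overlap of days is only a description of each member. All 4 *Mmp13*-/- arrays of 21 d lay above 3 of the 4 WT arrays, and WT replicate 4 lay within the *Mmp13*-/- range.

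At 21 d *Ptgs2* averaged 6.25 ± 0.41 across the 4 *Mmp13*-/- arrays, against 4.77 ± 1.22 across the 4 WT arrays (SD). WT replicates 2 and 3, at 3.86 and 3.62, lay below the median probe set of the array (4.22), where signals are dim. The log2 difference was 1.49, with a standard error of 0.41. This did not pass the adjusted test (adjusted p = 0.15 from limma), and an exact permutation test gave p = 0.0857 (two-sided). The size varied with single WT arrays: it was 1.93 and called without WT 21 d replicate 4 (adjusted p = 0.0386), 1.18 without replicate 2 (adjusted p = 0.25) and 1.1 without replicate 3 (adjusted p = 0.21). The change of the genotype difference between 14 d and 21 d was 1.42 (standard error 0.58, adjusted p = 0.682). In WT tissue the change of *Ptgs2* at 21 d against 14 d was -2.39 (standard error 0.55, adjusted p = 0.0579). The days did not overlap. The change was called without WT 21 d replicate 4 (-2.84, adjusted p = 0.00734). It was also called under 4 other settings (adjusted p from 0.00164 to 0.0405). Those included fits without the series term, in which the difference between days is not separated from series. It was not called in 13 of 18 alternatives. At 14 d against 7 d the change was -1.22 in *Mmp13*-/- tissue (standard error 0.46, adjusted p = 0.44) and -1.56 in WT tissue (standard error 0.46, adjusted p = 0.106). Within hybridization series 1 alone the WT change was -1.60 and was called (adjusted p = 0.0187). Of 17 alternatives for this WT change, 3 gained a call and 14 left it uncalled.

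A second, dimmer probe set of *Ptgs2* also had its highest signals at 7 d, at 5.03 to 6.19 on the *Mmp13*-/- arrays and 5.37 to 6.69 on the WT arrays. At 21 d it was at 2.95 to 3.26 in *Mmp13*-/- and 2.16 to 3.35 in WT tissue, below the median probe set of the array (4.22). Its genotype difference at 21 d was 0.25 (adjusted p = 0.819), so the larger difference was seen with the brighter probe set only. With the mean of both probe sets in their place, the difference was 0.87.

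Inflammatory genes that are known to be induced together with *Ptgs2* were also lower at 14 d by their signs. Of 10 such cytokine, chemokine and enzyme genes, all 10 had a negative change at 14 d against 7 d in each genotype (median -0.75 in *Mmp13*-/- tissue and -0.67 in WT tissue, against 0.00 over all genes tested in both). *Il6*, a cytokine of acute inflammation, and *Cxcl1*, a neutrophil attractant, fell in both genotypes. *Il6* fell by 2.32 in *Mmp13*-/- tissue (adjusted p = 0.00699 from limma) and by 2.16 in WT tissue (adjusted p = 0.00544). *Cxcl1* fell by 1.21 in *Mmp13*-/- tissue (adjusted p = 0.00833) and by 1.51 in WT tissue (adjusted p = 0.000623).

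At 21 d all 10 of these inflammatory genes had a positive *Mmp13*-/- minus WT difference (median 0.40, against -0.01 over all genes). At an unadjusted p under 0.05 there were 4 of them, against 12.1% of all genes, and none was called. Their mean log2 signal was 7.11, 7.04, 6.92 and 7.21 on the *Mmp13*-/- arrays and 6.76, 6.58, 6.44 and 7.00 on the WT arrays, in the order of the replicates. WT replicate 4, the array with the highest *Ptgs2* of its group, was also the highest here and lay within the *Mmp13*-/- range. At the earlier days most had a negative *Mmp13*-/- minus WT difference: 8 of 10 at 7 d (median -0.14) and 9 of 10 at 14 d (median -0.19). None of these was called. The genotype difference of 21 d minus that of 14 d was positive for all 10 (median 0.57, against -0.01 over all genes). At an unadjusted p under 0.05 there were 5 of them, against 6.43% of all genes, and none was called. In WT tissue *Cxcl1* (log2 change -1.15, adjusted p = 0.0497) and *Cxcl2*, which encodes a related chemokine (-1.85, adjusted p = 0.0433), fell between 14 d and 21 d. None of the 10 was called over that interval in *Mmp13*-/- tissue.

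**Figure D2:**
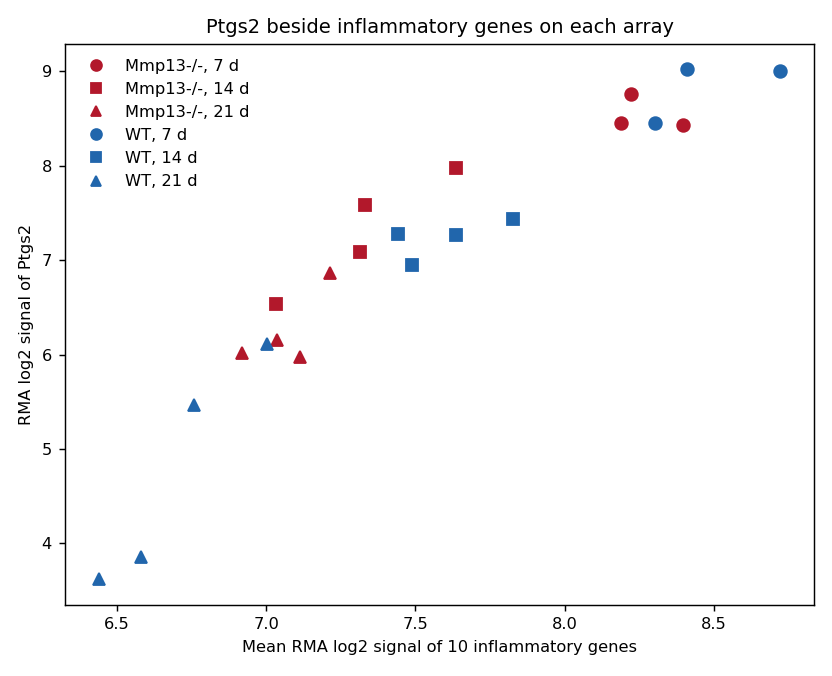
RMA log2 signal of *Ptgs2* (y axis) against the mean RMA log2 signal of 10 inflammatory genes (x axis), 1 point per array, with *Mmp13*-/- in red, WT in blue, circles for 7 d, squares for 14 d and triangles for 21 d. Arrays of 7 d lie at the upper right, and WT replicates 2 and 3 of 21 d, at 3.86 and 3.62 for *Ptgs2*, lie lowest on both axes.

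The genes whose signal was most like that of *Ptgs2* over the 22 arrays, among 11788 brighter genes, were *Ier3* (r = 0.97), an immediate early response gene, *Tnfsf9* (r = 0.96), which encodes a costimulatory ligand, and *Cxcl2* (r = 0.96). These are correlations over arrays that share day of harvest and hybridization series. They were picked for likeness to *Ptgs2* on these same arrays, so their values at 21 d are no separate support. *Ier3* was at 8.41 to 8.92 on the *Mmp13*-/- arrays and 7.41 to 8.19 on the WT arrays at 21 d. Its groups did not overlap, as for 3.36% of all genes, a share that does not allow for that choice. *Tnfsf9* was at 5.39 to 6.23 on the *Mmp13*-/- arrays and 4.78 to 5.87 on the WT arrays at 21 d. *Cxcl2* was at 7.83 to 8.39 on the *Mmp13*-/- arrays and 6.66 to 8.52 on the WT arrays at 21 d.

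Of the terminal synthases, *Ptgis* fell after 7 d in both genotypes. Its log2 signal in *Mmp13*-/- tissue was 8.90, 8.63 and 8.67 at 7 d, 6.69, 7.03, 6.01 and 7.53 at 14 d, and 6.52, 5.64, 6.65 and 7.73 at 21 d. In WT tissue it was 9.26, 8.53 and 8.41 at 7 d, 7.18, 7.57, 7.20 and 8.16 at 14 d, and 6.89, 6.79, 6.38 and 6.56 at 21 d. Every array of 14 d lay below every array of 7 d in each genotype. The exact permutation p (two-sided) was 0.0286 in *Mmp13*-/- tissue and 0.0571 in WT tissue. At 14 d *Ptgis* averaged 6.82 ± 0.64 in *Mmp13*-/- tissue (SD, n = 4), against 8.73 ± 0.15 at 7 d (SD, n = 3), a change of -2.14 adjusted for series (standard error 0.34, adjusted p = 0.0038 from limma). It averaged 7.53 ± 0.46 in WT tissue at 14 d (SD, n = 4), against 8.73 ± 0.46 at 7 d (SD, n = 3), a change of -1.43 adjusted for series (standard error 0.34, adjusted p = 0.0335). The WT call was lost in 10 of 17 other settings, among them all 7 without a single array of those days (adjusted p from 0.0502 to 0.144), and the *Mmp13*-/- call in 1 of 17 (adjusted p = 0.056).

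In both genotypes the array of series 2 was the highest *Ptgis* signal of 14 d, and the changes towards 21 d were larger with the series term than without it. At 21 d against 14 d the change of *Ptgis* was -0.85 in *Mmp13*-/- tissue adjusted for series (adjusted p = 0.357) and -0.18 without the series term, and it was -0.52 without *Mmp13*-/- 21 d replicate 2 (adjusted p = 0.495). In WT tissue it was -1.55 adjusted for series (standard error 0.40, adjusted p = 0.0868) and -0.87 without the term. Within series 2, which holds 1 array per genotype at 14 d, the changes were -0.90 in *Mmp13*-/- tissue and -1.51 in WT tissue. At 14 d the genotype difference of *Ptgis* was -0.71 with a standard error of 0.30 (adjusted p = 0.999 and two-sided exact permutation p = 0.114), with overlapping groups. It was 0.00 at 7 d and -0.02 at 21 d. The genes most like *Ptgis* over the arrays were *Rarres2* (r = 0.94), which encodes the chemoattractant chemerin, *Rras2* (r = 0.93), a small GTPase, and *Gfpt2* (r = 0.93), an enzyme of hexosamine synthesis.

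*Ptges* and *Ptgds* had narrow ranges. The brightest *Ptges* probe set ran from 5.84 to 6.79 on *Mmp13*-/- and from 5.94 to 6.61 on WT arrays over the 3 days. Its change at 14 d against 7 d in *Mmp13*-/- tissue was -0.30 (standard error 0.14, adjusted p = 0.751), and -0.18 without *Mmp13*-/- 7 d replicate 2 or -0.19 without *Mmp13*-/- 14 d replicate 3. *Ptges* has 2 more probe sets, and the nearer in brightness was at 5.43 to 6.21 on the *Mmp13*-/- arrays and 5.21 to 5.63 on the WT arrays at 21 d, a difference of 0.45 (adjusted p = 0.272) where the brightest gave -0.06. The same probe set changed by -0.90 at 21 d against 14 d in WT tissue (adjusted p = 0.0668). *Ptgds* ran from 5.66 to 6.23 on *Mmp13*-/- and from 5.45 to 6.34 on WT arrays, and none of its comparisons had an unadjusted p under 0.05. Its second probe set was dim.

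*Hpgd*, the inactivating enzyme, was lowest at 7 d by its group means. Its log2 signal in *Mmp13*-/- tissue was 6.61, 6.79 and 6.85 at 7 d, 7.16, 7.66, 8.18 and 7.55 at 14 d, and 7.07, 7.52, 7.06 and 6.70 at 21 d. In WT tissue it was 6.75, 7.78 and 6.17 at 7 d, 7.87, 8.20, 7.00 and 8.18 at 14 d, and 7.67, 7.81, 7.40 and 6.99 at 21 d. The days 7 d and 14 d did not overlap in *Mmp13*-/- tissue and overlapped in WT tissue. The change at 14 d against 7 d was 0.84 in *Mmp13*-/- tissue (standard error 0.34, adjusted p = 0.545) and 0.87 in WT tissue (standard error 0.34, adjusted p = 0.316). The WT change was 1.31 without WT 7 d replicate 2 (adjusted p = 0.0603) and 0.50 without WT 7 d replicate 3 (adjusted p = 0.897). The dimmer *Hpgd* probe set gave 0.69 in *Mmp13*-/- and 0.80 in WT tissue, and neither was called.

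**Figure D3:**
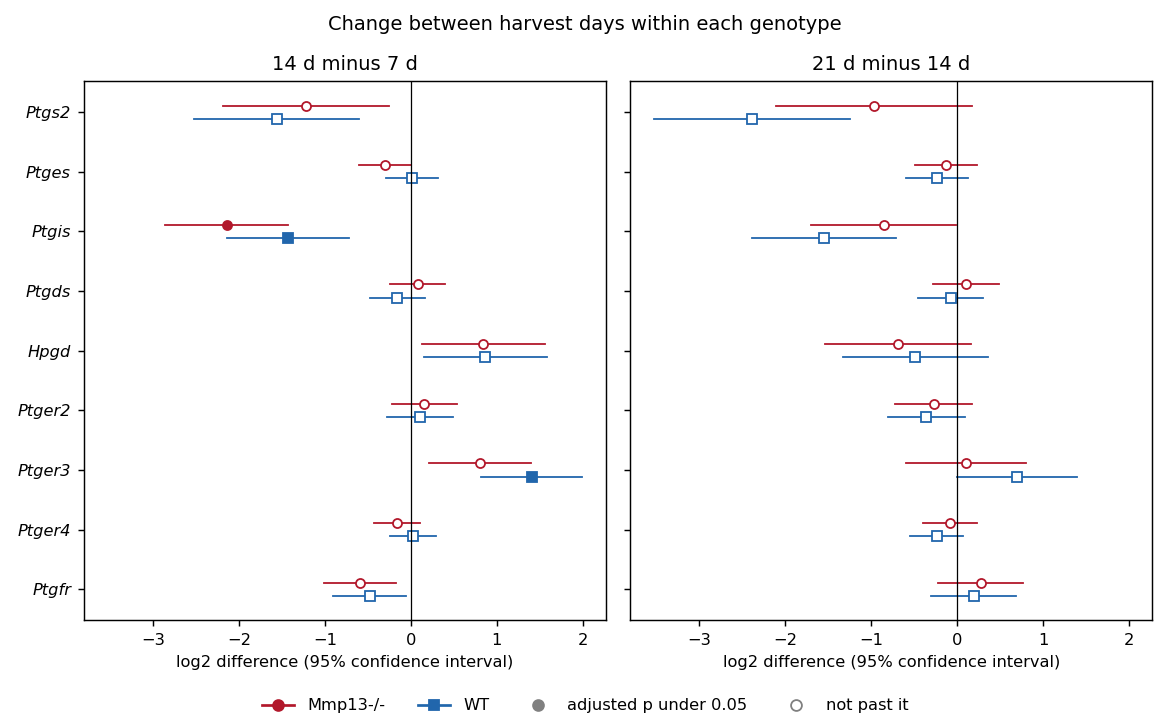
Log2 difference between consecutive days of harvest (x axis) for each gene (y axis), in *Mmp13*-/- tissue (red circles) and WT tissue (blue squares), with 95% confidence intervals from limma and adjusted for hybridization series. Filled symbols passed an adjusted p under 0.05: *Ptgis* in both genotypes and *Ptger3* in WT tissue, all at 14 d against 7 d.

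Among the receptors, *Ptger3* was lowest at 7 d, where *Ptgs2* was highest (r = -0.85 between them over the 22 arrays, a description). Its log2 signal in *Mmp13*-/- tissue was 3.95, 4.93 and 4.25 at 7 d, 4.94, 5.23, 5.46 and 5.29 at 14 d, and 5.76, 4.59, 6.11 and 5.44 at 21 d. In WT tissue it was 3.95, 4.45 and 3.81 at 7 d, 5.64, 5.16, 5.54 and 5.74 at 14 d, and 6.36, 6.43, 6.49 and 6.13 at 21 d. In WT tissue no array overlapped with those of another day, while in *Mmp13*-/- tissue 14 d and 21 d overlapped. These signals are not adjusted for series. With that adjustment, the WT change at 21 d against 14 d was 0.69 and was not called (adjusted p = 0.359 from limma). The *Mmp13*-/- change was 0.105 (adjusted p = 0.924). The rise at 14 d against 7 d in WT tissue was 1.4 (standard error 0.28, adjusted p = 0.0109 from limma), a call lost without WT 7 d replicate 3 (1.27, adjusted p = 0.0633). In *Mmp13*-/- tissue the change was 0.81 (standard error 0.28, adjusted p = 0.353), and the change of its genotype difference over that interval did not reach an unadjusted p under 0.05. Of the 7 d values, 3.95 and 3.81 in WT and 3.95 in *Mmp13*-/- tissue lay below 4.22, where signals are dim. The other *Ptger3* probe set, a dim one, changed by 0.08 in WT tissue (adjusted p = 0.999 from limma). With the mean of the *Ptger3* probe sets in place of the brightest, the WT change was 0.74.

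At 21 d all 4 *Mmp13*-/- arrays of *Ptger3* lay below all 4 WT arrays, though the highest *Mmp13*-/- value, 6.11, was close to the lowest WT value, 6.13. *Ptger3* averaged 5.48 ± 0.65 across the 4 *Mmp13*-/- arrays, against 6.35 ± 0.16 across the 4 WT arrays (SD). Their log2 difference was -0.88, with a standard error of 0.25 (adjusted p = 0.167). The exact permutation p was 0.0286 (two-sided), the smallest that 4 arrays against 4 allow. The difference was -0.58 without *Mmp13*-/- 21 d replicate 2. The other *Ptger3* probe set was dim, with a difference of the opposite sign, 0.30 (adjusted p = 0.416), so the direction at 21 d rests on 1 probe set. The genes most like *Ptger3* were *Rnf180* (r = 0.95), which encodes a ubiquitin ligase, *Svep1* (r = 0.93), an extracellular matrix protein gene, and *Megf6* (r = 0.93).

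*Ptger2* had a higher mean in *Mmp13*-/- tissue at each day, by a small amount. Its log2 signal was 7.68, 7.80 and 7.65 at 7 d in *Mmp13*-/- tissue, against 7.41, 7.58 and 7.31 in WT, where the groups did not overlap. At 14 d it was 8.14, 7.73, 7.87 and 7.94 on the *Mmp13*-/- arrays and 7.58, 7.47, 7.43 and 7.89 on the WT arrays. At 21 d it was 7.68, 8.12, 7.85 and 7.57 on the *Mmp13*-/- arrays and 7.27, 7.54, 6.89 and 7.87 on the WT arrays. At each later day 1 WT array, replicate 4, lay among the *Mmp13*-/- values and the other 3 lay below all of them. The mean difference over the 3 days was 0.34 (standard error 0.10, unadjusted p = 0.00281, adjusted p = 0.366 from limma), and at 21 d it was 0.41 with a standard error of 0.16 (adjusted p = 0.319 and two-sided exact permutation p = 0.143). Without WT 21 d replicate 3 the difference at 21 d was 0.24 (adjusted p = 0.473). *Ptgir*, the prostacyclin receptor gene, was the gene most like *Ptger2* over the 22 arrays (r = 0.89), and it is named after its value was seen. *Ptgir* was at 7.20 to 7.97 on the *Mmp13*-/- arrays and 6.30 to 7.53 on the WT arrays at 21 d.

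The brightest probe set of *Ptger4* stayed at 8.65 to 9.32 on *Mmp13*-/- and 8.51 to 9.10 on WT arrays over all days. None of its comparisons reached an unadjusted p under 0.05. A dimmer *Ptger4* probe set changed by -0.73 at 21 d against 14 d in WT tissue (unadjusted p = 0.0289, adjusted p = 0.289 from limma). In *Mmp13*-/- tissue it changed by -0.36 (adjusted p = 0.643). All 5 probe sets of *Ptgfr* were dim, that is, below the median probe set of the array. The brightest was at 2.51 to 2.92 at 14 d in *Mmp13*-/- tissue, against 3.20 to 3.59 at 7 d, and at 2.44 to 3.31 at 14 d in WT tissue, against 3.06 to 3.72 at 7 d. The changes at 14 d against 7 d were -0.59 in *Mmp13*-/- tissue (adjusted p = 0.327) and -0.48 in WT tissue (adjusted p = 0.367).

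**Figure D4:**
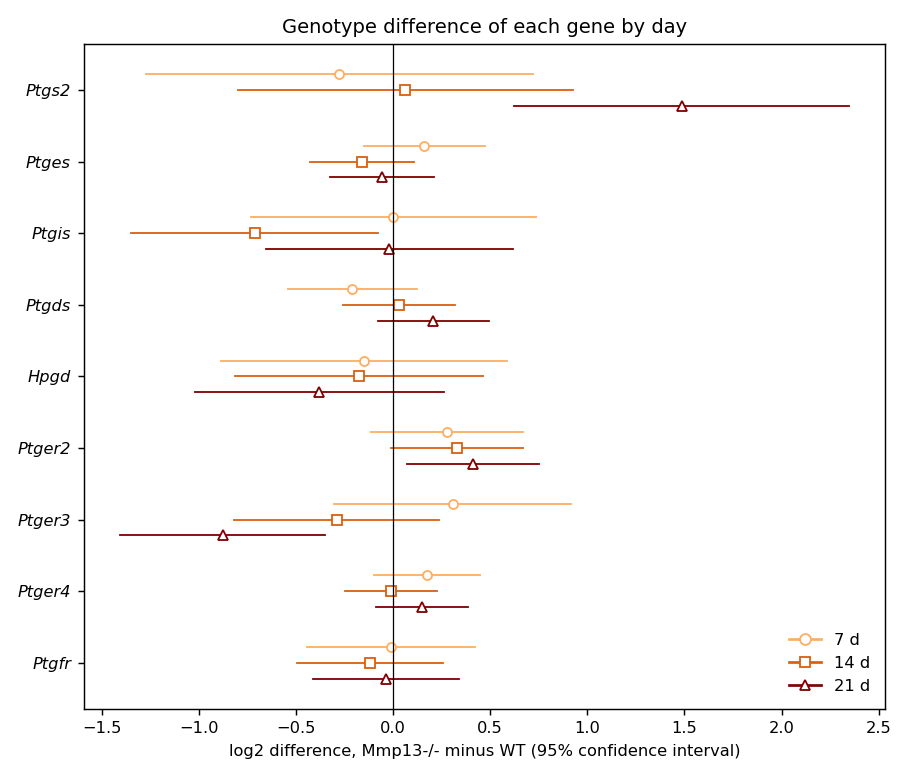
Log2 difference, *Mmp13*-/- minus WT (x axis), of each gene (y axis) at 7 d (circles), 14 d (squares) and 21 d (triangles), with 95% confidence intervals from limma. Open symbols did not pass the adjusted test, and all are open. *Ptgs2* at 1.49 and *Ptger3* at -0.88, both at 21 d, lie farthest from 0.

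Between genotypes, 0 of 9 members were called at 7 d (0.0110% of all genes), 14 d (0.0220%), 21 d (0.0440%) or over all days (0.0879%). At an unadjusted p under 0.05 there were 0 members at 7 d (2.99% of all genes), 1 at 14 d (*Ptgis*, 4.76%), 3 at 21 d (*Ptgs2*, *Ptger2* and *Ptger3*, 12.1%) and 1 over all days (*Ptger2*, 7.61%). Groups did not overlap for 1 member at 7 d (*Ptger2*, against 8.77% of all genes), 0 at 14 d (4.01%) and 1 at 21 d (*Ptger3*, 3.36%). The remaining 6 members at 21 d had differences from -0.38 to 0.21. The median difference over the 9 members was 0.00 at 7 d, -0.12 at 14 d and -0.02 at 21 d, against 0.00, 0.00 and -0.01 over all genes.

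Between days, at an unadjusted p under 0.05, there were 6 of 9 members in *Mmp13*-/- tissue at 14 d against 7 d (8.95% of all genes) and 5 in WT tissue (13.5%). At 21 d against 14 d there were 1 in *Mmp13*-/- tissue (*Ptgis*, 14.5%) and 2 in WT tissue (*Ptgs2* and *Ptgis*, 15.6%). The change of the genotype difference was called for 0 members and 0% of all genes in either interval. At an unadjusted p under 0.05 it passed for 0 members from 7 d to 14 d (3.06% of all genes) and for 1 from 14 d to 21 d (*Ptgs2*, 6.43%).

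The neighbouring steps of the pathway held few calls. Of 11 genes of arachidonate release, 1 was called: *Mgll*, which encodes monoacylglycerol lipase, rose in WT tissue at 21 d against 14 d by 1.81 (standard error 0.34, adjusted p = 0.0283). *Mgll* was at 7.50 to 8.51 at 21 d in *Mmp13*-/- tissue, against 6.50 to 6.85 at 14 d, and at 8.05 to 8.98 at 21 d in WT tissue, against 6.73 to 7.19 at 14 d. Its change in *Mmp13*-/- tissue was 1.53 (adjusted p = 0.0794). Of 7 other prostanoid enzymes measured, *Hpgds*, the hematopoietic prostaglandin D synthase, rose in WT tissue over that interval by 1.81 (standard error 0.34, adjusted p = 0.0293). Its WT means, not adjusted for series, were 5.27 at 14 d and 6.68 at 21 d. WT 14 d replicate 4, of series 2, was the lowest of its group at 4.81. *Hpgds* was at 5.27 to 6.51 on the *Mmp13*-/- arrays and 5.88 to 7.22 on the WT arrays at 21 d, a difference of -0.74 (adjusted p = 0.256). None of 8 other prostanoid receptors and transporters and none of 10 leukotriene and lipoxygenase genes was called in any of the 10 comparisons.

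Markers of cell types moved with some of these results, and their part in them was not tested. At 21 d 6 of 6 endothelial markers had a negative *Mmp13*-/- minus WT difference (median -0.36, none called), with a mean log2 signal of 6.47 to 6.87 on *Mmp13*-/- and 6.72 to 7.43 on WT arrays. For fibroblast markers 6 of 7 were negative (none called), at 11.47 to 11.88 on *Mmp13*-/- and 11.82 to 11.96 on WT arrays. Macrophage markers were at 9.25 to 10.22 on *Mmp13*-/- and 9.48 to 9.87 on WT arrays, with 5 of 7 negative, and neutrophil markers at 6.95 to 7.49 on *Mmp13*-/- and 6.99 to 7.95 on WT arrays, with 3 of 5 negative. The 7.95 was WT replicate 4, also the highest WT array of *Ptgs2*, *Ptger2* and the inflammatory genes, and the other 3 WT arrays were at 6.99 to 7.14. At 14 d, the day of the *Ptgis* difference, 6 of 6 endothelial and 6 of 7 fibroblast markers were negative, and *Lum*, a collagen-binding proteoglycan gene, was called (-0.94, adjusted p = 0.0274), as it was over all days (-0.61, adjusted p = 0.0111). Also negative at 14 d were 5 of 5 adipocyte markers (median -0.24), 5 of 5 neutrophil markers (median -0.46) and 6 of 7 keratinocyte markers (median -0.84, 5 of them at an unadjusted p under 0.05), none called. Most other lists leaned the same way: 4 of 5 platelet, 3 of 3 T cell, 5 of 6 mast cell, 4 of 5 skeletal muscle and 4 of 6 myofibroblast markers. Macrophage markers were negative for 4 of 7 and Schwann cell and nerve markers for 1 of 3. The keratinocyte mean was raised on WT replicates 1 and 3 only (5.14 and 5.59), against 3.63 and 3.46 on replicates 2 and 4. It was 3.44 to 3.66 on the *Mmp13*-/- arrays of 14 d, and 5 of the 7 markers were dim.

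Across days, beside the fall of *Ptgis*, 4 of 5 adipocyte markers were negative in each genotype at 14 d against 7 d (median -1.02 in *Mmp13*-/- and -0.87 in WT tissue, none called). Their mean log2 signal at 14 d was 4.64 to 5.93 in *Mmp13*-/- tissue, against 5.79 to 6.81 at 7 d, and 4.90 to 6.45 in WT tissue, against 6.10 to 7.89 at 7 d. Of 6 myofibroblast and smooth muscle markers, 5 of 6 were positive in each genotype. *Tagln* rose in *Mmp13*-/- tissue (1.88, adjusted p = 0.00502) and in WT tissue (1.83, adjusted p = 0.00291), and *Acta2* in WT tissue (1.14, adjusted p = 0.0371). Of 7 fibroblast markers, 6 were negative in *Mmp13*-/- tissue, where *Dcn* fell by 0.48 (adjusted p = 0.0128), and 4 were positive in WT tissue, where *Pdgfra* rose by 0.75 (adjusted p = 0.00842). Of 6 mast cell markers, 5 were negative in each genotype, and *Kit*, the other one in WT tissue, rose there by 0.99 (adjusted p = 0.0396). Endothelial markers had a median change of -0.03 in *Mmp13*-/- and 0.82 in WT tissue over the same interval, and *Cd34* fell by 1.5 in *Mmp13*-/- tissue (adjusted p = 0.0247). Keratinocyte markers averaged 3.43 to 3.73 on the *Mmp13*-/- arrays and 3.46 to 5.59 on the WT arrays, where the highest was at 14 d. Neutrophil markers, which moved with the inflammatory genes by their signs, were negative for 5 of 5 in *Mmp13*-/- and 4 of 5 in WT tissue, none called. Their mean log2 signal at 14 d was 7.24 to 7.81 in *Mmp13*-/- tissue, against 7.99 to 8.34 at 7 d, and 7.71 to 8.36 in WT tissue, against 8.17 to 8.34 at 7 d.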

How the data were processed

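The authors deposited a table of log2 signals from 22 Affymetrix whole-genome mouse arrays, normalized by RMA, with 1 value per probe set and array. Array medians were 4.16 to 4.27 and arrays of a group correlated at r of 0.977 to 0.996, and the number of arrays limits the precision. The RMA version is not given in the sources used here. Of 45101 probe sets, 64 controls were left out. A linear model in limma 3.58.1 (R 4.3.3) held the 6 group means and the hybridization series (2 micrograms of RNA in series 1, 250 ng in series 2), and p-values were Benjamini-Hochberg adjusted over 45037 probe sets. Exact permutation tests were two-sided. The procedure was tested on simulated data. Probe sets with 1 gene (34945), several genes (932) and none here (9160) come from GEO's platform annotation, and a gene stands for its brightest probe set. Dim means below 4.22, the median of probe set means. Statistics are printed for members at an unadjusted p under 0.05 and for the called genes of the other lists. The members and lists were chosen with earlier results of these data known. Alternatives covered the series term, arrays used, scaling, dim probe sets, moderation, probe set choice, the replicate block and single arrays left out.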

Additional observations from a re-analysis of the deposited data

How the results depend on the processing

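Over 20 results of single members and 368 alternatives, 347 kept direction and side of the threshold, 12 lost and 9 gained a call, and 0 reversed. The count of members called at 14 d against 7 d in *Mmp13*-/- tissue (1) was 0 with the arrays of the groups compared only. In WT tissue it (2) was 1 without the hybridization term, 1 with the series as a random block, and 0 to 1 without a single array (0 without WT 7 d replicate 3). The count at 21 d against 14 d in WT tissue (0) was 2 without the hybridization term, 1 with the random block, 2 with the groups compared only, 1 without dim probe sets, and 0 to 1 without a single array (1 without WT 21 d replicate 4). Between genotypes at 21 d (0) it was 0 to 1 without a single array (1 without WT 21 d replicate 4). The cause was not tested. Same-numbered arrays of the genotypes correlated in their deviations at -0.16 to 0.50 at 7 d, -0.14 to -0.03 at 14 d and -0.13 to 0.01 at 21 d. At 7 d 2 of 3 such pairs were over 0.1, but the highest r of that day, 0.56, joined *Mmp13*-/- replicate 2 and WT replicate 1. With 3 or 4 arrays per group the check cannot decide whether the numbers pair arrays, which were treated as unpaired. With the replicate block 3 members were called in WT tissue at 14 d against 7 d, *Ptgs2* among them (adjusted p = 0.0234 from limma). The dim probe sets of *Ptgfr* limit what can be said of it.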
